A study of Mus musculus with 82 samples.

Results

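Mouse embryonic fibroblasts being reprogrammed with OSKM were profiled for accessible chromatin, and 5677 of 55272 merged regions were listed in the Flag day 7 sample group alone. These 5677 regions, called the Flag day 7 alone regions below, are 10.3% of all merged regions. The peak lists of 4 groups were merged over chromosomes 1 to 19, X and Y, joining intervals that overlapped or touched. A region was a member when the Flag day 7 list held at least 1 bp of it and the Flag day 3, D209N day 3 and D209N day 7 lists held none. The members were chosen by their presence in the lists, so the number of members and their absence elsewhere are descriptions and not findings. The matching rule in the other arm gave 3783 D209N day 7 alone regions, 6.84% of all regions, and 7110 regions were in both day 7 lists and in neither day 3 list. Another 21785 regions were in all 4 lists.

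The cells were OG2-MEFs given retroviral OSKM, the factors Oct4, Sox2, Klf4 and c-Myc, and later kept in iCD1 or mESC medium with vitamin C. Every group used here carried OSKM. The groups differed in the second construct, Flag or RNase H1(D209N), and in the day of collection, 3 or 7. The labels name 2 ATAC-seq replicates for each of the 4 groups, 8 of the 82 samples, each started from 50000 cells cut with Tn5 transposase. The series design lists a control together with the forms of RNase H1, and the Flag groups are taken to be it. Cells were infected in bulk, so a list describes all cells of a sample together. Each group has 1 list of intervals without scores or read counts, so no value has a replicate error, depth is unknown, and no test between conditions was possible. Intervals in brackets are Wilson 95% intervals and cover counting error only. A region that a list lacks may still be accessible below that list's calling threshold.

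ATAC-seq finds open chromatin because the transposase inserts adapters mainly where nucleosomes leave the DNA free, which is the case at active promoters and enhancers. In reprogramming fibroblasts, sites of the fibroblast program lose accessibility while epithelial and later pluripotency sites gain it. An R-loop is a stretch of RNA paired with 1 strand of the DNA, and RNase H1 is the enzyme that degrades the RNA of such hybrids. The D209N substitution lies in the catalytic site of RNase H1, and this form is used to bind hybrids without cutting them.

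The promoter sequences below show what the regions look like where they cover an annotated start site. They were taken from RefSeq windows on GRCm38.p6 that run from 250 bases before to 50 bases after a start, 5′ to 3′ on the gene's strand. Capitals mark matches to the searched motifs on either strand. Ifitm10 (chr7:142372210-142372509, minus strand) and Tbx3os2 (chr5:119691169-119691468, minus strand) hold an AP-1 motif. Chrna4 (chr2:181039128-181039427, minus strand) is rich in CpG and GC boxes, and Akt2 (chr7:27605547-27605846, plus strand) is poor in CpG and holds a CCAAT box. These 4 windows lay wholly inside a Flag day 7 alone region. For Gata3 (chr2:9878551-9878784, minus strand) and Rap1gap2 (chr11:74610866-74611093, minus strand) the part of the window inside the region is shown, and these 2 genes were chosen after their values were seen.
Ifitm10: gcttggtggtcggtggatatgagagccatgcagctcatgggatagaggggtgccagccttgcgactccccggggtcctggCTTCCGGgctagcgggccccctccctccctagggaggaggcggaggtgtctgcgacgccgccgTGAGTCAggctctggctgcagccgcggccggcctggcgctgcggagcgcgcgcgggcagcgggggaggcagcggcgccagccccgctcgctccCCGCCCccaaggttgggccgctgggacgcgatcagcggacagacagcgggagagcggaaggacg
Tbx3os2: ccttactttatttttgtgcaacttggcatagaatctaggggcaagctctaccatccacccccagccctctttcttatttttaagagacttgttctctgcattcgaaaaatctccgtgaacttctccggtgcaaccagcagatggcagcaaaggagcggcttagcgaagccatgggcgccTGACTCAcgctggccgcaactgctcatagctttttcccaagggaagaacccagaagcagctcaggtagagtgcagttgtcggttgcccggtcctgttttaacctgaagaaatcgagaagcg
Chrna4: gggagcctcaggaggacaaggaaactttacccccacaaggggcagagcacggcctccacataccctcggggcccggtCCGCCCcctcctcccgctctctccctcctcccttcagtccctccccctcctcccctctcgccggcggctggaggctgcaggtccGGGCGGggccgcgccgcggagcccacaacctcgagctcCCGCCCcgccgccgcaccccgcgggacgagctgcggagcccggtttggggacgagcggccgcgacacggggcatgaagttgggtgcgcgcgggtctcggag
Akt2: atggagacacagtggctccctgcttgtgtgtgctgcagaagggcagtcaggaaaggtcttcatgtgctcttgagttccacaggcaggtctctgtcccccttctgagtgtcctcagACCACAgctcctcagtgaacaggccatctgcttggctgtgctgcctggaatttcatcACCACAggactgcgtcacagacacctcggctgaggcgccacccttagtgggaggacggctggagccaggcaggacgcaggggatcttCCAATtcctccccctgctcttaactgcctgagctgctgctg
Gata3: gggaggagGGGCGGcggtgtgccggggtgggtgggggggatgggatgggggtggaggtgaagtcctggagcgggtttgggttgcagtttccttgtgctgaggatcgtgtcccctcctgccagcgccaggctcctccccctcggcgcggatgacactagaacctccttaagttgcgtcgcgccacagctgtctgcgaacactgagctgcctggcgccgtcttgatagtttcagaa
Rap1gap2: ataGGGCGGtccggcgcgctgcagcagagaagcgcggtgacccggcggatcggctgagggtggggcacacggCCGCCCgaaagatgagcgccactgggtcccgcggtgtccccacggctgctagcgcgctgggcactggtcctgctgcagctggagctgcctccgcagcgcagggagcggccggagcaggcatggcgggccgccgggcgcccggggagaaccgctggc

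The 6 promoters belong to genes of different kinds. Ifitm10 is a relative of the interferon-induced transmembrane genes, and its region of 614 bp had its nearest D209N day 7 peak 14942 bp away. Tbx3os2 is an RNA gene transcribed opposite to Tbx3, a transcription factor gene of the pluripotency list, and its region lay 10246 bp from the nearest D209N day 7 peak. Chrna4 encodes a subunit of the nicotinic acetylcholine receptor, and its window had 74.3% G and C and a CpG observed-to-expected ratio of 0.808. Akt2, a kinase of the insulin pathway, had 58.7% G and C and a ratio of 0.194. Gata3 encodes a transcription factor of trophoblast and T cells that has several start sites. Its 334 bp region was absent from Flag day 3 by a narrow margin, since a Flag day 3 peak began 40 bp away, while the nearest D209N day 7 peak was 404 bp away. Rap1gap2 encodes a GTPase-activating protein for Rap1, and its 340 bp region at the gene start was 8054 bp from the nearest D209N day 7 peak and 26898 bp from the nearest Flag day 3 peak. Distances count the bases between 2 intervals plus 1.

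The regions were narrow, and every one consisted of a single Flag day 7 peak. Their median width was 243 bp, with quartiles of 202 and 296 bp and a range of 1 to 818 bp. D209N day 7 alone regions had a median of 246 bp, regions of both day 7 lists 411 bp, and regions of all 4 lists 796 bp. Regions present in more lists are unions of more peaks, so part of this order follows from merging. The widest single Flag day 7 peak of a region does not join peaks of different lists, though regions of several peaks offer more to pick from. A wider peak also has more bases that could meet another list's peak, so the rule itself favours narrow members. When the 42048 regions of that list were ranked by their widest Flag day 7 peak and divided into 5 equal groups, the Flag day 7 alone share was 43.4% of the narrowest group (42.4 to 44.5). It was 18.02% in the next group, 5.30% in the middle one, 0.737% in the fourth and 0.0238% in the widest. A share of 3.68% of members held a peak at or above the list's median of 464 bp, against 57.6% of the other Flag day 7 regions, and 1.78% of members were under 50 bp.

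**Figure D1:**
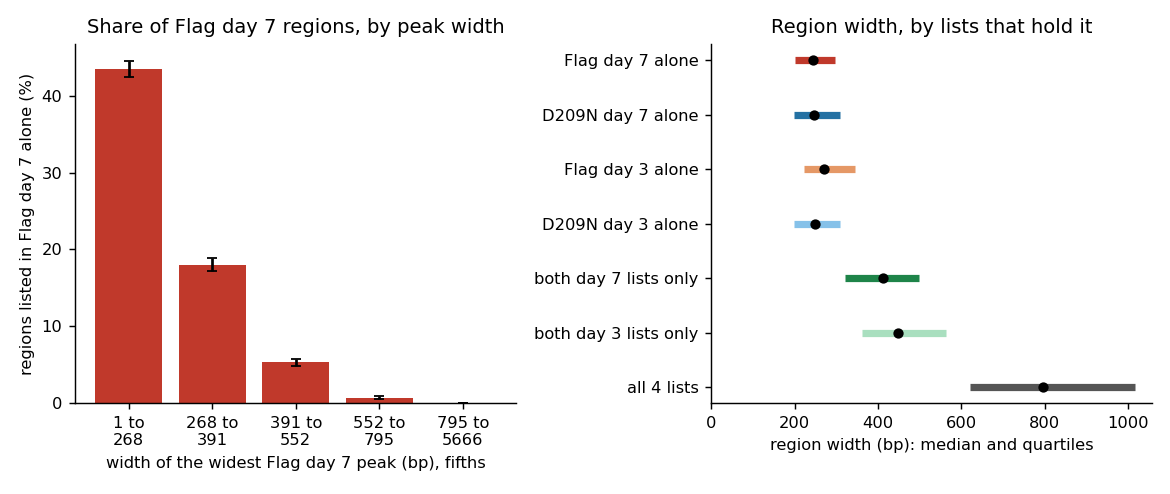
Left, share (%) of Flag day 7 regions that were listed in that group alone, in 5 groups of equal size by the width in bp of the widest Flag day 7 peak, with Wilson 95% intervals. Right, median (point) and quartiles (bar) of region width in bp by the lists that hold the region. The share falls from 43.4% in the narrowest group to 0.0238% in the widest, and the 4 classes held by 1 list have medians of 243 to 271 bp.

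Among the widest regions were several at gene starts or ends. The widest, 818 bp at chr6:125379909-125380726, lay in Plekhg6, a gene for a guanine nucleotide exchange factor. Peaks of other lists came within 1248 bp (Flag day 3) and 1254 bp (D209N day 7) of it. The second, 817 bp at chr9:20868644-20869460, lay within 1 kb of an end of Shfl, inside the gene, which encodes an interferon-stimulated inhibitor of viral RNA translation, and the nearest peak of another list was 8412 bp away. The third, 784 bp at chr5:24526245-24527028, lay at an end of Gbx1, a homeobox gene, 2965 bp from a D209N day 7 peak. The next 7 were nearest to Socs2, Gm38538, Mkln1, Dysf, Ghitm, Cpne7 and Rap1gap2. Socs2 encodes an inhibitor of cytokine signalling, and its 773 bp region was the closest of the 10 to another list, at 273 bp from D209N day 7 and 323 bp from Flag day 3. Of these 10 widest regions, those of Mkln1, Rap1gap2 and Dysf lay farthest from a gene end, at 201, 100.3 and 61.9 kb.

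Most Flag day 7 alone regions had no peak of another list within 1 kb, and the nearest other list was usually D209N day 7. The median distance was 9.78 kb to the nearest D209N day 7 peak, 13.8 kb to Flag day 3 and 17.8 kb to D209N day 3. The lists differ in length, with 40452, 36375 and 29189 peaks, and a longer list has closer peaks. D209N day 7 held the nearest peak for 3603 regions (63.5%), Flag day 3 for 1495 and D209N day 3 for 579. At least 1 of the 3 lists had a peak within 1 kb of 639 regions, 11.3% (10.5 to 12.1), and within 10 kb of 3148, or 55.5%. For D209N day 7 alone regions and their 3 other lists, these shares were 13.8% (12.8 to 15.0) and 54.3%. Near the limit of the rule, 82 members had another list's peak within 50 bp, while 261 Flag day 7 peaks shared 1 to 50 bp with another list and so gave no member.

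**Figure D2:**
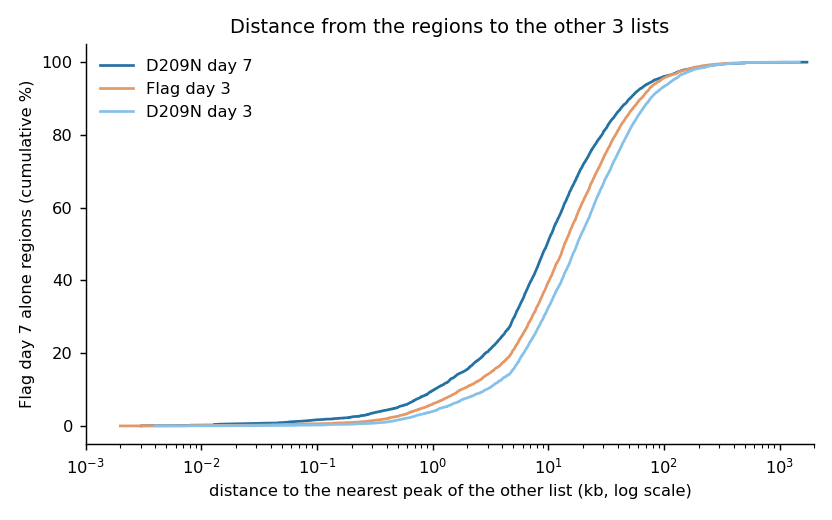
Cumulative share (%) of the 5677 Flag day 7 alone regions by distance in kb (log scale) to the nearest peak of each other list. The D209N day 7 curve lies to the left of the Flag day 3 and D209N day 3 curves, with medians of 9.78, 13.8 and 17.8 kb.

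Peak names carry serial numbers that ascend along the chromosomes with numbers missing. The share of numbers still present was 78.5% for Flag and 73.0% for D209N at day 7, and 90.0% and 79.5% at day 3. No label or header says why numbers are missing, and the place of a missing peak between its listed neighbours is unknown. Like other regions absent from the D209N day 7 list, the Flag day 7 alone regions fell mostly where its numbers were missing. Of 5672 regions with a listed D209N day 7 peak on each side, 4129 or 72.8% (71.6 to 73.9) stood in a stretch with at least 1 missing number. The same count was 42.9% in the D209N day 3 list and 23.0% in the Flag day 3 list, whose numbers were the most complete. In the D209N day 7 list it was 58.1% for Flag day 3 alone and 59.2% for D209N day 3 alone regions. For regions of both day 3 lists only it was 59.3%. The stretches around these 3 classes were longer, at medians of 93.4, 97.4 and 138.8 kb against 48.8 kb for the Flag day 7 alone regions.

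Stretches between neighbouring listed peaks allow the comparison with places that held no such region. In the D209N day 7 list, 70.5% (69.2 to 71.7) of the 4931 stretches with a Flag day 7 alone region lacked a number, against 20.4% (20.01 to 20.8) of the 35500 stretches without one. Stretches with such a region were longer, at a median of 45.8 kb against 19.1 kb, so the shares were also taken by length. Under 5 kb they were 41.3% (30.9 to 52.6, 75 stretches) against 1.56%, and between 10 and 20 kb 58.3% against 15.1%. Over 50 kb they were 78.4% and 41.2%. The D209N day 7 shares with and without a region stood apart beyond their counting intervals at all 5 lengths. In the Flag day 3 list the 2 shares over all lengths were 21.5% and 8.26%, and in the D209N day 3 list 39.5% and 16.7%. In the Flag day 7 list, 61.2% of the D209N day 7 alone regions stood in a stretch with a missing number. This share was 51.7% for Flag day 3 alone, 53.02% for D209N day 3 alone and 54.7% for regions of both day 3 lists only. In stretches of 10 to 20 kb it was 39.5% for D209N day 7 alone regions. Flag day 7 alone regions had 59.02% in such stretches of the D209N day 7 list. Stretches of the Flag day 7 list without a D209N day 7 alone region were not counted, so the reverse comparison was not made. Whether missing numbers stand for peaks at these regions was not tested.

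**Figure D3:**
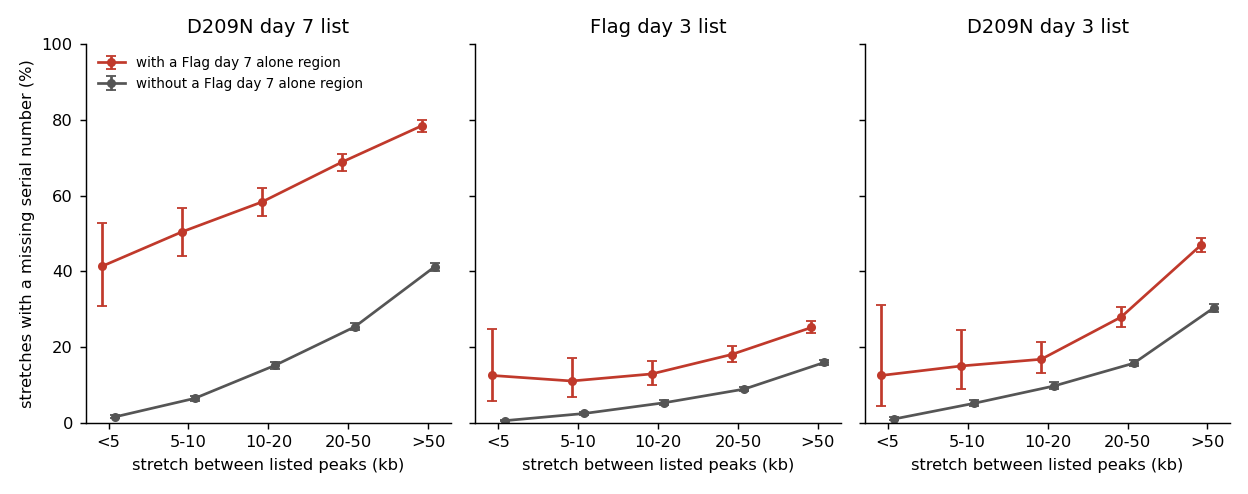
Share (%) of stretches between neighbouring listed peaks that lacked at least 1 serial number, by stretch length in kb, for the D209N day 7, Flag day 3 and D209N day 3 lists. Red points are stretches with a Flag day 7 alone region, grey points those without, and bars are Wilson 95% intervals. In the D209N day 7 list the share under 5 kb was 41.3% with and 1.56% without such a region.

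A smaller set of the regions had complete numbering around it. In 774 of the 5670 regions flanked in all 3 other lists (13.7%), no number was missing from any of them. Their median width was 233 bp, against 245 bp for the rest. Of them 12.8% (10.6 to 15.3) lay at a gene end, against 10.7% (9.89 to 11.6) of the rest, and these intervals overlap. The regions of Prdm14, Ocln, Fosl2, Setdb1 and Neurog1 described below belong to this set.

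The Flag day 7 alone regions lay mainly inside genes or between them, and seldom at gene ends. A region was at a gene end when it overlapped the 1 kb around either end of a protein-coding gene, since the gene table gives no strand. This held for 628 regions, 11.1% (10.3 to 11.9), against 8.93% (8.07 to 9.89) of D209N day 7 alone regions and 15.1% (14.3 to 16.0) of regions in both day 7 lists. The share was 4.96% for Flag day 3 alone regions, 46.3% for regions of all 4 lists and 25.1% over all merged regions. The regions thus stood below the whole set and between the 2 like day 7 classes. Inside a gene but away from its ends lay 2705 regions (47.6%), and between genes 2344 (41.3%). The median distance to a gene end was 15.5 kb, against 19.3 kb for D209N day 7 alone and 35.6 kb for Flag day 3 alone regions. Wider members were at gene ends a little more often, with 14.3% (12.3 to 16.4) in the widest of 5 equal groups and 10.3% (8.66 to 12.2) in the narrowest.

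Around annotated start sites, the regions clustered less tightly than regions of all 4 lists. RefSeq start sites with strand were at hand for 5478 regions. The region's centre lay within 1 kb of a start in 471 of them, 8.60% (7.88 to 9.37), against 44.0% of regions in all 4 lists and 13.3% of those in both day 7 lists. Of these 471, 55.2% (50.7 to 59.6) were within 250 bp of the start, against 78.2% for regions of all 4 lists. The others lay more often downstream (28.9%) than upstream (15.9%).

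**Figure D4:**
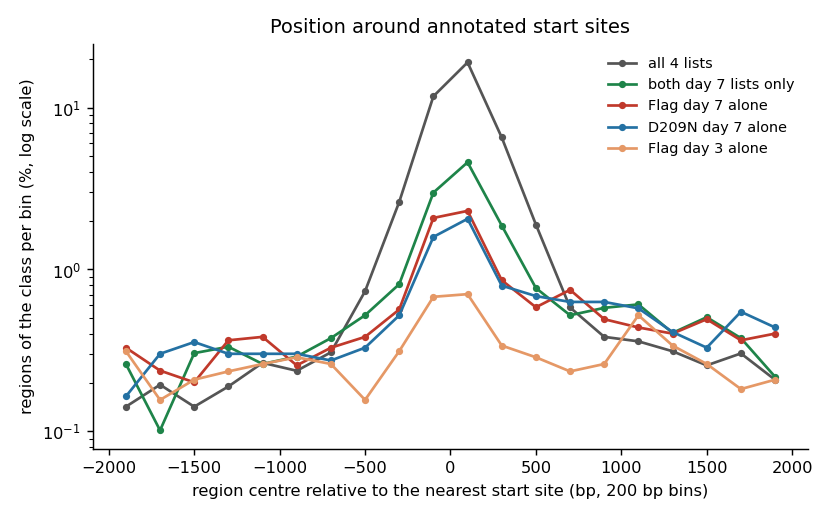
Share of each class of regions (%, log scale) in 200 bp bins of the distance in bp from the nearest annotated start site to the region's centre, positive downstream. The first upstream bin held 2.08% of the Flag day 7 alone regions and 11.7% of the regions of all 4 lists.

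Promoter sequence set the windows touched by the regions apart from promoters that were open throughout. The regions touched 287 of 32851 RefSeq windows (0.874%), from 259 regions and 268 genes, 186 of them protein-coding. Windows of the same gene can overlap, and 37 of the 268 genes had a window touched by another list too. The median G and C content was 58.7%, against 52.7% over all windows and 62.3% in windows of regions in all 4 lists. The median CpG observed-to-expected ratio was 0.481, against 0.384 and 0.797. A ratio of at least 0.6 was found in 39.7% (34.2 to 45.5) of windows, against 35.8% of all windows, 33.1% (26.4 to 40.6) for D209N day 7 alone regions, 51.2% (47.6 to 54.7) for both day 7 lists and 78.6% for all 4 lists. In CpG content the windows touched by 1 bp or more thus stood nearer to the average promoter than to the promoters listed throughout. Windows wholly inside a region had a median ratio of 0.701, nearer to the 0.826 of such windows of all 4 lists. Such windows of both day 7 lists had 0.712. The share with a ratio of at least 0.6 was 60.9% for both day 7 lists and 84.3% for all 4 lists. Of the 17 windows that lay wholly inside a region, 64.7% (41.3 to 82.7) reached that ratio. These included, beside those printed above, the windows of Wnt3 and Wnt11, secreted signalling proteins, of Trp73, a relative of p53, of Dio3, a thyroid hormone deiodinase, and of Tesc, Brsk1, Kcnip3, Tnfrsf18, 2610307P16Rik, Gm39790, Gm3336, Gm11753 and Gm33595.

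Of 13 motifs searched on both strands, AP-1 had the largest excess over the whole set of windows by ratio, and no motif's letters were contained in another's. The AP-1 motif, TGAGTCA or TGACTCA, was in 31 of the 287 windows, 10.8% (7.71 to 14.9), against 5.20% of all windows and 3.25% of windows of all 4 lists. Windows of D209N day 7 alone regions had it at nearly the same share, 10.2% (6.49 to 15.8), and those of both day 7 lists at 7.51%. AP-1 factors are the Fos and Jun proteins that bind many fibroblast enhancers. The GC box GGGCGG was in 45.3%, against 35.7% of all windows and 69.4% for all 4 lists. Some motifs were less frequent than in the windows of all 4 lists. CCAAT was in 26.5% against 38.9%, the ETS motif CCGGAAG in 5.23% against 19.05%, and the NRF1 motif GCGCATGC in 0.697% against 5.72%. CCAAT was about as frequent in all windows (37.4%) and in windows in no list (37.5%) as in those of all 4 lists. It was in 38.6% (31.5 to 46.1) of windows of D209N day 7 alone regions and in 27.85% of those of both day 7 lists. The RUNX motif TGTGGT was in 12.2% (8.90 to 16.5) of the windows, near the 10.8% for both day 7 lists and the 11.3% for all 4 lists. It was in 21.1% (15.6 to 27.9) of windows of D209N day 7 alone regions, an interval that overlaps that of the Flag day 7 alone regions. Its share was 16.8% in all windows and 21.1% in windows in no list. Base composition differs between these classes and its part in the motif shares was not tested. A match is a string of letters and not a bound site. Each window was searched in full, so a match may lie outside the region. Only 17 of the 287 windows lay wholly inside a region, against 9555 of 12050 for all 4 lists. AP-1 was in 3 of those 17, and in 0 of the 10 such windows of D209N day 7 alone regions.

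The regions were spread over all chromosomes and mostly stood singly. They made up from 7.37% of regions on chromosome X and 7.99% on chromosome 3 to 11.7% on chromosomes 11 and 19. On each autosome they outnumbered the D209N day 7 alone regions, by 1.26 to 1.90 times, the highest on chromosome 1 with 412 against 217. Of the 5677, 4427 had no other member as the next region on either side, and the median distance to another member was 75.6 kb. Among their immediate neighbours 11.8% were other members, against a share of 10.3% in the whole set, 15.6% were regions of both day 7 lists (12.9% in the whole set) and 2.70% regions of both day 3 lists (4.70%). Among neighbours of D209N day 7 alone regions, 14.4% were regions of both day 7 lists, 3.32% of both day 3 lists and 12.7% Flag day 7 alone. For both classes, regions of both day 7 lists were thus somewhat more frequent as neighbours, and regions of both day 3 lists less frequent, than in the whole set. The longest runs, 3 of 5 regions each, stood at chr4:137287351-137345682 next to Cdc42 and Wnt4, at chr9:64060216-64121093 next to Lctl and Smad6, and at chr11:96438922-96760279 next to Skap1. Cdc42 is a small GTPase of the actin skeleton, Wnt4 a secreted signal, and Smad6 an inhibitor of BMP signalling.

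When each region was given to the coding gene whose end was nearest, up to 100 kb away, the regions reached 3957 of 21887 genes (18.1%). D209N day 7 alone regions reached 2689 (12.3%), and 1038 genes had both kinds, which is 26.2% of the former and 38.6% of the latter. Most genes had 1 region, 836 had at least 2, and 10 had at least 5. These 10 were Bcor, Casz1, Arhgef10l, Sh3pxd2a, Cgnl1, Zfp710, Med13l, Rnf220, Epb41l4a and Fyn. These genes had between 7 and 26 regions each, and over all coding genes the median was 1. Counts of regions per gene, here and below, are of assigned regions. A region close to a gene can be assigned to a neighbouring gene whose end is nearer.

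Bcor encodes a corepressor that belongs to a Polycomb complex, and it had 8 Flag day 7 alone regions of 26 regions in all. Its regions listed numbered 12 in Flag day 3, 20 in Flag day 7, 4 in D209N day 3 and 15 in D209N day 7. Of the 8 regions, 7 lay inside the gene at chrX:12036737-12160516, and the other lay 93.2 kb from its end. The widest of them, 570 bp at chrX:12089780-12090349, was 466 bp from a Flag day 3 peak and 647 bp from a D209N day 7 peak. The region nearest to a gene end, 211 bp at chrX:12159980-12160190, was 1170 bp from a D209N day 7 peak. Of the 8 regions of Bcor, 7 stood where D209N day 7 numbers were missing.

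Casz1, a zinc finger transcription factor of heart and vessel development, had 7 such regions and 1 D209N day 7 alone region. Its listed regions numbered 6 in Flag day 3, 15 in Flag day 7, 2 in D209N day 3 and 9 in D209N day 7. The widest of the 7, 513 bp at chr4:148914755-148915267, was 13217 bp from the nearest peak of another list. All 7 stood in stretches with missing D209N day 7 numbers. Arhgef10l, a guanine nucleotide exchange factor, also had 7, with 5, 16, 3 and 11 regions in the same order of lists. For 1 of them, chr4:140639965-140640130, absence rested on a few bases, since a D209N day 7 peak lay 4 bp and a Flag day 3 peak 8 bp away. Sh3pxd2a, a scaffold of podosomes, had 6, all inside the gene, with 9, 18, 10 and 13 regions in those lists. Cgnl1, a protein of epithelial cell junctions, had 7 regions in all, of which 5 were Flag day 7 alone. It had 1 region in each day 3 list, 7 in Flag day 7 and 2 in D209N day 7. Fyn, a Src family kinase, had 5 of 13, with 3, 11, 3 and 7 in the lists. The other 4, Zfp710 (a zinc finger protein), Med13l (a Mediator subunit), Rnf220 (a ubiquitin ligase) and Epb41l4a (a FERM domain protein), had 5 each. For all 10 genes the Flag day 7 list held more regions than the D209N day 7 list, which the choice of genes with many Flag day 7 alone regions favours.

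Gene groups showed no large departure in most cases. Over all coding genes, 10.6% (10.3 to 10.8) of assigned regions were Flag day 7 alone and 6.75% were D209N day 7 alone. Of 19 gene lists, endothelial genes had the highest share and AP-1 factor genes the lowest, and no list was tested. The endothelial list had 12 Flag day 7 alone regions among 59, 20.3% (12.0 to 32.3), at 7 of 10 genes, against 18.1% of all genes with at least 1. These genes had a median of 6.5 regions of any class, against 1 over all coding genes, and a gene with more regions has more room for a Flag day 7 alone region. Its D209N day 7 alone share was 10.2% (4.74 to 20.5). The regions stood at Flt1 (3), Cdh5, Kdr and Pecam1 (2 each) and Erg, Sox18 and Tie1 (1 each). Flt1 and Kdr are VEGF receptors, Cdh5 and Pecam1 are adhesion proteins of vessel walls, Tie1 is a receptor, and Erg and Sox18 are transcription factors. Flt1 had 5 regions in Flag day 3, 8 in Flag day 7, 3 in D209N day 3 and 6 in D209N day 7. Tie1 had 1 assigned region in all, in Flag day 7. None of these 12 regions lay at an end of a list gene. The 4 endothelial marker genes together had 8 assigned regions in Flag day 3, 18 in Flag day 7, 7 in D209N day 3 and 14 in D209N day 7, and 1 of the 4 had a gene-end region in every list.

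Epithelial genes, which reprogramming fibroblasts turn on early, had 17 Flag day 7 alone regions among 104, 16.3% (10.5 to 24.6), at 13 of 34 genes. The list's D209N day 7 alone share was 10.6% (6.01 to 17.95), against 6.75% over all coding genes. The 6 epithelial marker genes together had 14 assigned regions in Flag day 3 and 20 in Flag day 7. They had 10 in D209N day 3 and 25 in D209N day 7, so the larger day 7 number was in the D209N list. Krt18, a keratin of simple epithelia, had 3 Flag day 7 alone regions among 5 regions. Its listed regions numbered 2, 5, 2 and 2 in Flag day 3, Flag day 7, D209N day 3 and D209N day 7. Cdh3, which encodes P-cadherin, also had 3 among 5, with 1, 5, 1 and 2 in the same order. Its gene-end region, 280 bp at chr8:106511086-106511365, lay 206 bp from a D209N day 7 peak that was at the same gene end. Cldn7, a claudin of tight junctions, had a single assigned region in all, and only Flag day 7 listed it. Ocln, which encodes occludin of tight junctions, had a region of 193 bp just outside the gene (chr13:100552985-100553177). A D209N day 7 peak began 13 bp from it, so the 2 arms had neighbouring intervals at the same gene end. Ovol1, an epithelial transcription factor, had a 60 bp region 288 bp from a D209N day 7 peak. The gene-end regions of these 3 epithelial genes thus had a D209N day 7 peak within 300 bp. Krt18, Cldn7, Irf1 (below) and the genes of the longest runs were named after their values were seen.

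Endoderm and trophoblast genes had 10 Flag day 7 alone regions among 66, 15.2% (8.44 to 25.7), 1 at each of 10 of 18 genes. These were Cdx2, Dab2, Elf5, Gata2, Gata3, Gata4, Hand1, Hnf4a, Sox17 and Tfap2a, all but Dab2 genes for lineage transcription factors. The list's D209N day 7 alone share was 12.1% (6.27 to 22.1), and its genes had a median of 3.5 regions. Hand1 had no other assigned region in any list. Elf5 had 3 D209N day 7 alone regions beside its 1. The region of Cdx2, a trophoblast factor, was 198 bp at chr5:147306484-147306681 inside the gene, 6451 bp from the nearest D209N day 7 peak, and the other 3 lists had regions of their own at an end of the gene. Mesenchymal and TGF-beta genes had 21 among 199, 10.6% (7.01 to 15.6), at 14 of 28 genes. The D209N day 7 alone share of this list was 7.04% (4.24 to 11.5). Its genes had a median of 6 regions of any class, against 1 over all coding genes. Zeb2, a repressor of epithelial genes, had 4 of 12 and no D209N day 7 alone region, and Smad3, a mediator of TGF-beta signalling, had 3 of 16 and 2 of the other kind. The Tagln region, 77 bp at chr9:45936045-45936121, covered the end of this smooth muscle actin-binding gene, 752 bp from a Flag day 3 peak and 815 bp from a D209N day 7 peak. The Flag day 7 alone share of the mesenchymal and TGF-beta genes was thus near the 10.6% over all coding genes.

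The interval of the pluripotency genes spanned the share of all genes, with 9 Flag day 7 alone regions among 112, 8.04% (4.29 to 14.6), at 8 of 38 genes. Prdm14, a regulator of naive pluripotency, had a 67 bp region at chr1:13126312-13126378 inside the gene, 22019 bp from the nearest D209N day 7 peak. Tdh, the threonine dehydrogenase of mouse embryonic stem cells, had a 195 bp region at chr14:63508720-63508914, 7993 bp from D209N day 7. Interferon and nucleic acid sensing genes had 7 among 45 (15.6%, 7.75 to 28.8), 3 of them at Irf1, a transcription factor of the interferon response. R-loop processing genes had 3 among 53 (5.66%), p53 and senescence genes 3 among 71 (4.23%) and AP-1 factor genes 2 among 49 (4.08%). Fibroblast matrix genes had 15 among 145 (10.3%), Polycomb and chromatin genes 21 among 196 (10.7%), housekeeping genes 5 among 50 (10.0%) and cell cycle genes 7 among 79 (8.86%). The guidance list of semaphorins, ephrins and Slits had 18 among 216 (8.33%), neural genes 6 among 72 (8.33%), muscle genes 3 among 27, macrophage and blood genes 4 among 26 and keratinocyte genes 2 among 16.

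**Figure D5:**
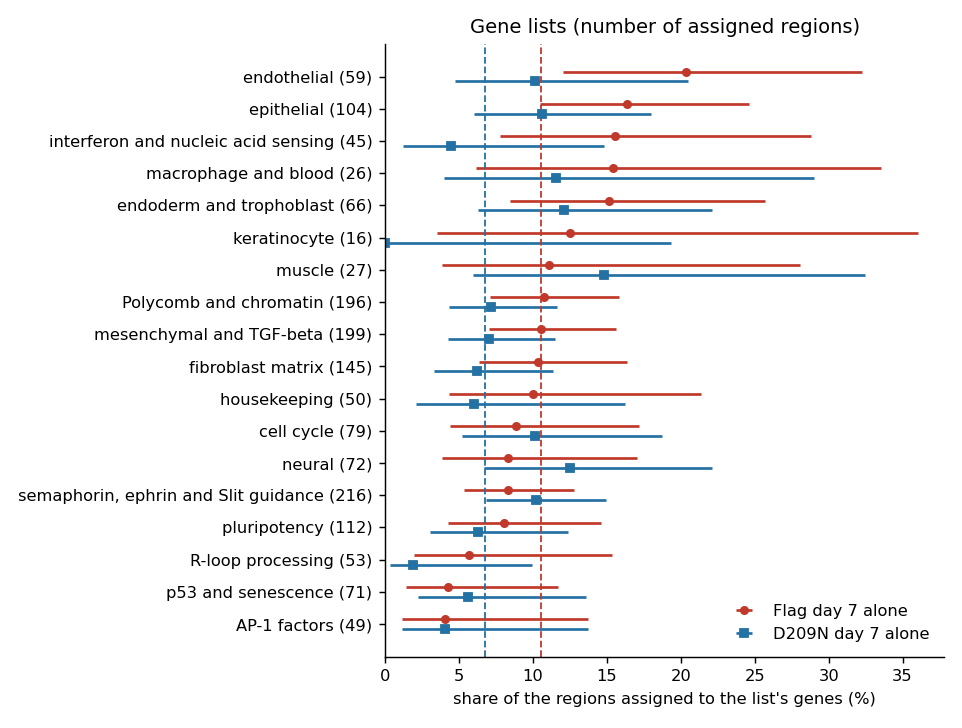
Share (%) of the regions assigned to each gene list that were Flag day 7 alone (red circles) or D209N day 7 alone (blue squares), with Wilson 95% intervals and the number of assigned regions in brackets. Dashed lines are the shares over all coding genes, 10.6% and 6.75%. The endothelial list has the highest red share, 20.3%, and most intervals span the dashed line of their colour.

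A Flag day 7 alone region lay at a gene end of 675 coding genes (3.08%). At 339 of these, 1.55% of all coding genes, no other list had a region at either end. D209N day 7 alone regions lay at a gene end of 365 coding genes (1.67%). Among the listed genes named by their gene-end region, Postn, Prdm14, Tdh, Dcc, Arhgef10l, Rap1gap2 and Ccnd3 had no region of another list at either end. Postn encodes periostin of the fibroblast matrix, and its 268 bp region at chr3:54358582-54358849 was 91551 bp from a Flag day 3 peak and 202771 bp from a D209N day 7 peak. Dcc, a netrin receptor, had a 171 bp region that was 509786 bp from the nearest peak of another list. Ccnd3, a D-type cyclin, had a 166 bp region at its end with a D209N day 7 peak 2422 bp away. At other genes the region was an addition to ends that other lists also held. This was the case for Fosl2 (an AP-1 factor), Setdb1 (a histone H3 methyltransferase), Cdkn2a (the Ink4a and Arf tumour suppressors), Bax (a promoter of cell death) and Tfrc (the transferrin receptor). Setdb1 had its region of 231 bp 262 bp from a D209N day 7 peak, and Neurog1, a neurogenic factor, had 176 bp at 74 bp from one.

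The labelled cell type was checked against marker genes. In the Flag day 7 list 6 of 10 fibroblast genes had a gene-end region, 6 of 6 epithelial genes, 3 of 7 pluripotency genes, 2 of 3 muscle, 2 of 4 neural, 1 of 4 macrophage and blood and 0 of 3 keratinocyte genes. In Flag day 3 the same counts were 5, 3, 4, 1, 1, 1 and 0. The D209N day 7 list had the same counts as Flag day 7 except for 4 pluripotency genes, and D209N day 3 had 5 fibroblast, 1 epithelial and 2 pluripotency genes. In a bulk sample, more cells of a kind and more open chromatin per cell cannot be told apart. When only regions with a peak at or above its list's median width were kept, 3.68% of the Flag day 7 alone regions remained, at 186 genes, with 19.1% of them at a gene end.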

How the data were processed

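The members, gene lists and motifs were chosen with earlier results of these data known. The authors deposited 1 list of peak intervals per ATAC-seq group as positions and names, with no score, and no source used here gives the peak caller, its threshold, the treatment of insertion offsets or the joining of the 2 replicates. All names carry rep1. Per the submitters' processing notes, CASAVA, Bowtie2 2.3.2, mm10 and GRCm38.p5 were used. Lists were matched to groups by the arm and day in the peak names, and 3 mitochondrial intervals per list were left out. Regions were merged, annotated with RefSeq coding genes and promoter windows of GRCm38.p6 and counted in Python 3.11.15 with numpy 2.4.6, pandas 2.3.3 and scipy 1.17.1. The merging, distance, gene-end and serial-number steps were tested on simulated data. The strand needed for start sites came from the promoter windows, which were used on all chromosomes but 1. No p-value was computed.

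Named genes are the 10 with most regions, list genes with a region at a gene end, the genes nearest to the 10 widest regions, genes with a promoter window wholly inside a region, and the list genes with most regions in the 3 lists (endothelial, endoderm and trophoblast, mesenchymal and TGF-beta) whose share of genes with a region was farthest from that of all genes. The results of 1 gene list and 1 gene are not reported here.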

Additional observations from a re-analysis of the deposited data

How the results depend on the processing

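No paired analysis was possible because each group has 1 peak list, and for the same reason no replicate could be left out. Of 30 alternatives 14 stayed within 1.5 times a count or within the counting interval of a share or ratio, and 16 did not. The Flag to D209N ratio, 1.501, stayed above 1 in the 4 alternatives run for it. With no other list's peak allowed within 500 bp, 10.1% of the Flag day 7 alone regions were at a gene end, 5.12% had another peak within 1 kb and 74.5% stood in a D209N day 7 number gap. When other lists could cover up to 50% of a region, the ratio was 1.38, the share within 1 kb 21.0% and the share in a gap 68.8%. Keeping peaks at or above the list's median width left 0.378% of all merged regions in place of 10.3%, a ratio of 1.61, 19.1% at gene ends, 79.4% in a gap and 186 genes. A gene end of 0.5 or 2 kb gave 7.31% or 16.3%, a distance of 5 kb gave 33.4%, overlap with the gene body gave 2562 genes, and promoter windows wholly inside a region gave 64.7% with a CpG ratio of at least 0.6. Single peaks without merging changed no result beyond these limits. Assignment within 20 kb left 18 of 19 gene lists within their intervals. Apart from what each alternative redefines, the cause was not tested. Unknown depth limits every absence.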
